A study of Mus musculus with 5 samples.

Results

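Maternally methylated imprint control regions were examined in DNA of mouse LSK cells, the Lin- Sca1+ cKit+ fraction of bone marrow, where blood stem cells and multipotent progenitors are found. The regions were chosen by position alone, as 10 windows of 2 to 6 kb in the mm9 assembly around the control regions of Peg3, Snrpn, Kcnq1ot1, Mest, Peg10, Grb10, Plagl1, Airn, Impact and Nnat. Of the 1029060 autosomal CpGs covered in every library, 243 lay in these windows. Methylation was read by enhanced reduced representation bisulfite sequencing, in which bisulfite leaves methylated cytosine as C and makes unmethylated cytosine read as T. The 5 libraries comprised 2 targeted libraries and 3 wild-type libraries, all from C57BL/6 mice. The targeted libraries are titled KO, whereas their genotype label reads +/-, so they are called targeted libraries 1 and 2 without a statement on how many alleles were lost. The gene itself is not reported here. The design text speaks of a germ line knockout and of an age of 12 months for a transcriptome, and no age is stated for these DNA libraries. The labels do not tie libraries to separate animals, and p-values therefore cover only a spread between libraries that may be technical. Values are given in the order targeted libraries 1 and 2, then wild-type libraries 1, 2 and 3. The identity of the sorted cells could not be checked against marker genes, because DNA methylation alone was measured.

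An imprint control region of this kind gains its methylation in the oocyte and keeps it through the reprogramming of the early embryo. In somatic cells the maternal copy is then methylated and the paternal copy is not. In mouse embryonic cells the zinc finger protein ZFP57 binds the methylated motif TGCCGC and, with TRIM28, keeps the maternal mark in place. If every cell held a fully methylated maternal and an unmethylated paternal copy, and both were recovered alike, the level would read 50%. The data do not separate the parental copies. In such bulk DNA, a lower share of methylated copies in every cell and a loss in some cells cannot be told apart. Imprinted genes are known in this tissue above all through Cdkn1c, a cell cycle inhibitor of the Kcnq1ot1 domain that keeps mouse blood stem cells quiescent.

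RefSeq promoters of GRCm38.p6, running from 250 bases before to 50 bases after a start site, were taken by gene name. They were available for the genes of 8 of the 10 windows, with 14 entries in all. Since the deposited positions are in mm9 and no mm9 sequence was at hand, each promoter was laid on the measured CpGs by the spacing of its CG letters alone. Promoters of Plagl1 and Nnat could be placed, each in only 1 position (of 1292 tried for Plagl1 and 2780 for Nnat), and are shown because measured CpGs lie on their start sites. Capitals mark the CpGs covered in all 5 libraries.
Plagl1, plus strand, GRCm38.p6 chr10:13090582-13090881: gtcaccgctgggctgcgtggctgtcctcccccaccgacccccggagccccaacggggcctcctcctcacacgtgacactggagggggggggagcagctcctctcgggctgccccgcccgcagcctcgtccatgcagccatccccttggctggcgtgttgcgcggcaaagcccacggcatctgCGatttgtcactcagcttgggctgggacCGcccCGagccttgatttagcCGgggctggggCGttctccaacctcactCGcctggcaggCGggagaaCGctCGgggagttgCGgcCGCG
Nnat, plus strand, GRCm38.p6 chr2:157559828-157560127: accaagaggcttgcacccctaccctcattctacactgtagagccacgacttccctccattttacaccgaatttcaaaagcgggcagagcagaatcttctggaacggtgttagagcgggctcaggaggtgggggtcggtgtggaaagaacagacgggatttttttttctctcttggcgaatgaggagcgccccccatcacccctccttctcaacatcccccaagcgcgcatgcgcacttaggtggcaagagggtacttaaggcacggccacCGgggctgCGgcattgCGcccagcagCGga

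The Plagl1 promoter holds 26 CpGs, of which 12 were covered in every library, and the Nnat promoter holds 17, of which 4 were. The letters CCGG, where the enzyme MspI cuts, stand at bases 41 to 44 and 231 to 234 of the Plagl1 sequence and at bases 270 to 273 of the Nnat sequence. TGCCGC was searched on both strands and found as GCGGCA at bases 161 to 166 for Plagl1 and 278 to 283 for Nnat. By entry, 6 of the 14 promoters (42.9%) held TGCCGC, against 11.6% of all 32851 RefSeq mouse promoters of this length, and 7 of 14 held CCGG, against 52.8%. The 14 entries are few and include a pair for Mest that overlap almost wholly. They were taken by gene name, and only those of Plagl1 and Nnat were placed within their windows. The share of all promoters is not matched for CpG content, so the motif shares do not describe the windows themselves. These matches are letters in a window of sequence, and binding was not measured.

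Nearly all CpGs of the windows were partly methylated. In 230 of 243 (94.7%) the level lay between 20 and 80% in every library, and by the mean of the 5 libraries 242 did. The median coverage of these CpGs was 95 and 98 reads in targeted and 95, 95 and 87 reads in wild-type cells. Coverage per window was uneven, from a median of 14 reads in the Snrpn window of wild-type library 1 to 328 reads in the Peg3 window of wild-type library 2. Of 262 CpGs seen in any library, 19 were not covered in all 5 and were left out, and 10 of those were seen in wild-type library 3 alone.

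Kcnq1ot1 and Airn are long noncoding RNAs made from the paternal copy that silence neighbouring genes on the same chromosome. The Kcnq1ot1 window, at chromosome 7, 150480001 to 150483000, lies inside the potassium channel gene Kcnq1 and gave 17 CpGs. Its level, the mean over its CpGs, was 49.3% and 34.7% in targeted and 38.8%, 38.1% and 40.8% in wild-type cells. By this mean, targeted library 1 was above and targeted library 2 below all wild-type libraries. With reads pooled over the 17 CpGs, levels were 50.6% and 38.6% in targeted and 37.4%, 39.8% and 42.8% in wild-type cells. Targeted library 2 then lay within the wild-type values. The Airn window, at chromosome 17, 12933001 to 12936000, lies where Airn overlaps Igf2r, the receptor gene it silences, and gave 20 CpGs. Its level was 53.7% and 39.3% in targeted and 43.0%, 44.5% and 40.5% in wild-type cells. The same order of the targeted libraries held here by the plain mean, with the highest and the lowest value of the 5. With reads pooled over each 1000 bp, targeted library 2 was not the lowest. It read 36.52% and 41.8%, within wild-type values of 36.49%, 46.9% and 39.8%, and of 43.5%, 40.4% and 39.9%.

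A set of 7 windows marks the promoters of genes expressed from the paternal copy. Peg3 encodes a zinc finger protein, and its window, at chromosome 7, 6680001 to 6685000, gave 5 CpGs within 67 bases. The Peg3 level was 56.0% and 40.3% in targeted and 45.4%, 39.99% and 39.0% in wild-type cells. Targeted library 2 lay within the wild-type values and targeted library 1 above them. Snrpn encodes a protein of the spliceosome and lies at the imprinting centre whose human counterpart is tied to Prader-Willi syndrome. Its window, at chromosome 7, 67147001 to 67150000, gave 7 CpGs with levels of 56.8% and 37.2% in targeted and 29.0%, 39.2% and 39.1% in wild-type cells. The lowest wild-type value there rests on a median of 14 reads per CpG, and that of targeted library 2 on 15 reads. Mest encodes a protein of the hydrolase fold family, and its window, at chromosome 6, 30684001 to 30690000, gave 5 CpGs within 81 bases. Here levels were 52.8% and 37.8% in targeted and 36.5%, 34.5% and 33.4% in wild-type cells, so the groups did not overlap. Peg10, a gene derived from a retrotransposon and needed for the mouse placenta, gave 12 CpGs in its window at chromosome 6, 4696001 to 4700000. Its levels were 51.0% and 45.6% in targeted and 45.8%, 39.7% and 37.7% in wild-type cells, where the groups overlapped through wild-type library 1.

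Plagl1 encodes a zinc finger transcription factor, and its window, at chromosome 10, 12809001 to 12812000, gave 43 CpGs with a median of 142 to 170 reads per library. The Plagl1 level was 49.6% and 37.1% in targeted and 37.0%, 36.6% and 35.9% in wild-type cells. The wild-type libraries stood within an SD of 0.51 percentage points, and targeted library 2 lay 0.651 points above their mean. Impact encodes a regulator of translation that restrains the kinase GCN2. Its window, at chromosome 18, 13130001 to 13133000, gave 23 CpGs with levels of 51.0% and 33.9% in targeted and 37.2%, 39.0% and 38.01% in wild-type cells. Targeted library 2 was again below every wild-type library. Nnat encodes neuronatin, a small membrane protein, and lies within the gene Blcap. The Nnat window, at chromosome 2, 157385001 to 157388000, gave 40 CpGs with levels of 49.6% and 43.1% in targeted and 48.9%, 42.8% and 39.3% in wild-type cells, which overlapped.

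Grb10 encodes an adaptor that dampens growth factor signalling and is expressed from the maternal copy in most mouse tissues, unlike the other genes, and from the paternal copy in neurons. Its window, at chromosome 11, 11925001 to 11927000, gave the most CpGs, 71. The Grb10 level was 47.7% and 37.8% in targeted and 37.6%, 39.9% and 39.1% in wild-type cells. Targeted library 2 lay within the wild-type values.

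**Figure D1:**
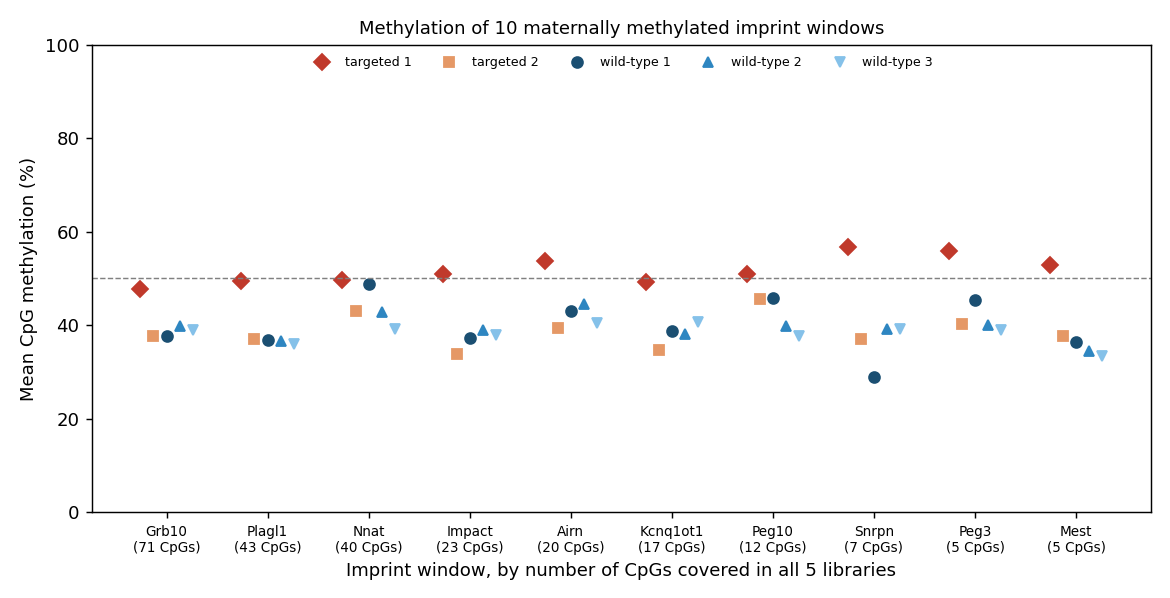
Mean CpG methylation in percent (vertical axis) of the 10 imprint windows (horizontal axis, with the number of CpGs), 1 point per library and a dashed line at 50%. Targeted library 1 is the highest point in all 10 windows, and the other 4 libraries lie below 50% in each.

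Across the windows, targeted library 1 stood apart from the other 4 libraries, targeted library 2 included. Averaged over the 10 windows, the level was 51.8% in targeted library 1 and 38.7% in targeted library 2, against 39.9%, 39.4% and 38.3% in wild-type libraries 1 to 3. Targeted library 1 was below 50% in 4 windows, and each of the other 4 libraries in all 10. It was the highest library in 10 of 10 windows. Its distance from the wild-type mean ran from 6.00 points in Nnat to 21.1 points in Snrpn. In each window this distance exceeded the SD of the wild-type libraries, which ran from 0.51 points in Plagl1 to 5.89 points in Snrpn. In Nnat it was only just above wild-type library 1, at 49.6% against 48.9%. The Snrpn distance leans on CpGs with few reads. With reads pooled, Snrpn read 52.4% and 40.2% in targeted and 39.8%, 39.7% and 36.4% in wild-type cells. The distance of targeted library 2 from the wild-type mean ran from -4.49 points in Kcnq1ot1 to 4.55 points in Peg10. It fell inside the wild-type values in 5 windows, below all of them in 3 and above all of them in 2. These counts use plain means over CpGs. With reads pooled, targeted library 2 lay within the wild-type values in Kcnq1ot1 and Airn, as given above.

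**Figure D2:**
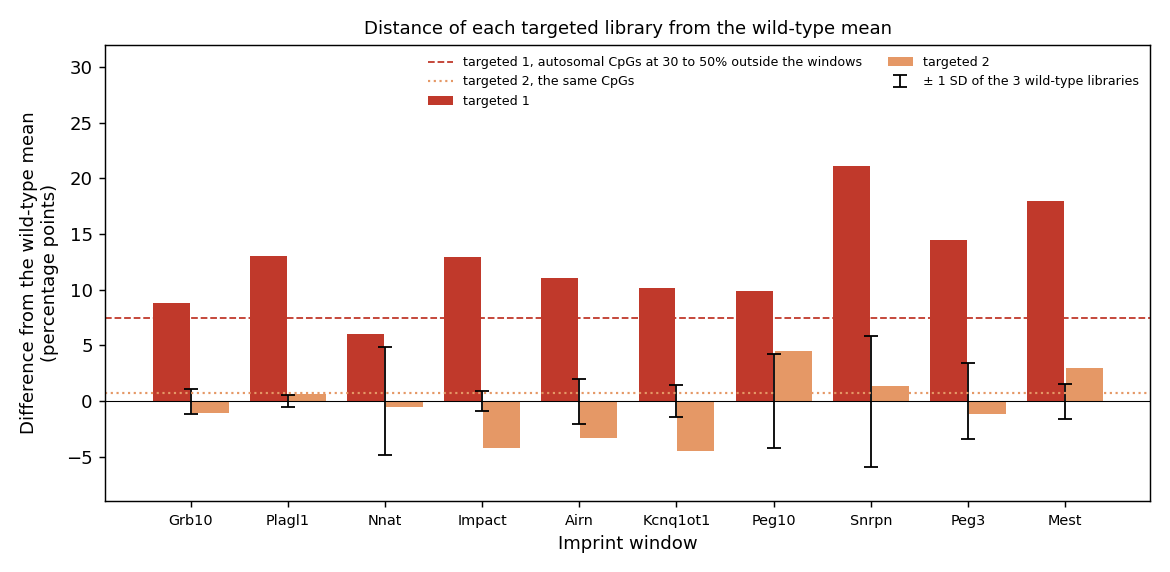
Distance of each targeted library from the mean of the wild-type libraries in percentage points (vertical axis) for the 10 windows (horizontal axis), with bars from 0, the wild-type SD (n = 3) as black error bars, and dashed lines for autosomal CpGs at 30 to 50% outside the windows. All bars of targeted library 1 point up, by 6.00 to 21.1 points, while those of targeted library 2 point either way.

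The group means differed by 2.75 points in Nnat (46.4 ± 4.596%, SD, n = 2 targeted, and 43.6 ± 4.84%, n = 3 wild-type) to 11.2 points in Snrpn (47.0 ± 13.9% and 35.8 ± 5.89%), with the targeted mean higher in all 10. Two-sided exact permutation tests, with 10 ways to assign 2 of 5 libraries, gave p = 0.1 for Mest and Plagl1 and 0.3 to 0.8 for the other 8 windows, and 0.1 is the smallest p that 2 against 3 libraries allow. For Mest the means were 45.3 ± 10.6% and 34.8 ± 1.58%, and for Plagl1 43.4 ± 8.78% and 36.5 ± 0.51%. Which windows reached 0.1 depended on the averaging. With reads pooled over the CpGs, the same permutation test gave p = 0.1 for Mest, Snrpn and Peg10. The rest then ran from 0.2 (Plagl1) to 0.7 (Impact). Without targeted library 1, the difference turned below 0 in 6 of the windows, to -1.19 points for Peg3, -4.49 for Kcnq1ot1, -1.09 for Grb10, -3.32 for Airn, -4.18 for Impact and -0.498 for Nnat.

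Tests on read counts made no call in the windows. With the quasi-likelihood test of edgeR, adjusted by Benjamini-Hochberg over the whole autosomal table, 0 of 14 tested tiles of 1000 bp were called (adjusted p under 0.05, difference of 10 points or more), against a background of 0.0166% of 90324 tiles. Of the 243 single CpGs, 0 were called (adjusted p under 0.05, difference of 25 points or more), against 0.00886% of 756528 CpGs. The smallest adjusted p by edgeR was 0.790 for a tile, in the Mest window, and 0.876 for a CpG. At an unadjusted p under 0.05 edgeR gave 0 of the 14 tiles (6.33% of all tiles) and 3 of the 243 CpGs (1.23%), all 3 higher in targeted, against 2.97% of all CpGs in either direction and 2.29% higher in targeted (5.35% for tiles), while limma gave 0 tiles and 3 CpGs at that level and 0 calls. The difference was positive in 14 of 14 tiles, from 3.19 to 10.2 points with a median of 5.71, and in 74.4% of the 12025 autosomal tiles whose mean lies at 20 to 80%, with a median of 2.46. It was positive at 191 of 243 CpGs, with a median of 4.41, and at 69.1% of autosomal CpGs at 20 to 80%, with a median of 3.44. Targeted library 1 was the highest library in 14 of 14 tiles, against 55.7% of those autosomal tiles. Both targeted libraries were above all wild-type libraries in 3 of 14 tiles (21.4%), close to the 21.8% of those tiles.

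Single CpGs gave a more scattered ordering. Targeted library 1 was the highest library at 173 of 243 CpGs (71.2%), and at 46.5% of the 68668 autosomal CpGs with a mean of 20 to 80%. Among the 19610 CpGs outside the windows with a mean of 30 to 50%, nearer the level of the windows, the share was 49.4%. By window, targeted library 1 was highest at 4 of 12 CpGs in Peg10 and 16 of 40 in Nnat, both below these background shares. It was highest at 13 of 20 in Airn, 53 of 71 in Grb10, 14 of 17 in Kcnq1ot1 and 36 of 43 in Plagl1. The counts were 6 of 7 in Snrpn, 21 of 23 in Impact and 5 of 5 in both Peg3 and Mest. Both targeted libraries were above all wild-type libraries at 55 CpGs (22.6%, background 19.4%) and below all of them at 1 CpG. The CpG with the largest difference in a window, 30.1 points, lay in Plagl1 at position 12810598, base 211 of the promoter sequence shown above. It read 58.6% and 40.9% in targeted and 5.56%, 16.7% and 36.7% in wild-type cells, on 18 to 30 reads each. Its edgeR p was 0.0304, and its adjusted p 0.876. The CpG with the largest difference in each other window was at 11925762 in Grb10 (20.8 points), 157385345 in Nnat (20.03), 67149978 in Snrpn (19.4), 30689333 in Mest (12.4), 4697398 in Peg10 (11.96), 12934599 in Airn (11.95), 150481280 in Kcnq1ot1 (11.9), 13131640 in Impact (9.65) and 6682973 in Peg3 (9.17). The adjusted p by edgeR was 0.876 for each of them. At the Nnat CpG it was targeted library 2 that was highest, with 86.8%, against 75.0% in targeted library 1 and 75.4%, 55.6% and 51.6% in wild-type cells.

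Outside the windows, targeted library 1 was also higher at other partly methylated CpGs. The nearest class by level, 19610 autosomal CpGs with a mean of 30 to 50%, averaged 46.3% in targeted library 1 and 39.5% in targeted library 2, against 39.0%, 38.3% and 39.0% in wild-type libraries 1 to 3. Its distance from the wild-type mean was 7.496 points there and 10.5 points over the 243 window CpGs, and 9 of the 10 windows exceeded the former value. For targeted library 2 the distance was 0.711 points in that class and -0.966 points over the window CpGs. Over all autosomal CpGs outside the windows the levels were 35.1% and 34.4% in targeted and 34.3%, 34.2% and 34.2% in wild-type cells. The windows are 10 regions read in the same 5 libraries as the class, and whether their distance differs from that of the class was not tested.

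Coverage moved with this library. Median reads at autosomal CpGs below 20% methylation were 1.07 times those at CpGs above 80% in targeted library 1, against 2 times in targeted library 2 and 1.99, 1.89 and 1.64 times in wild-type libraries 1 to 3. Targeted library 1 thus read methylated and unmethylated CpGs at nearly equal depth, and the other libraries read unmethylated ones more deeply. The part of this in the window levels was not tested.

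Neighbouring CpGs of a window often had nearly the same coverage in every library. Strand entries within 49 bases with coverage of at least 0.8 times, and at most the inverse of that, the coverage of the first in every library were joined into read stacks, taken here as reads from the same fragment end. These entries formed 70 stacks, of which 62 held 2 or more CpGs, with a median of 4 CpGs per stack. A CpG read on both strands can fall in 2 stacks, so the stacks do not divide the 243 CpGs among them. Within a stack and library, the levels of the CpGs spanned a median of 4.82 points. In 50 of 70 stacks (71.4%), targeted library 1 was the highest library, with the lowest share in Nnat (5 of 14). This regroups the same reads as the 71.2% of CpGs. Stacks were not formed outside the windows, so the share has no background. Because levels within a stack were close, CpGs of a stack cannot be read as independent readings of a window. The window levels and CpG counts above still give each CpG the same weight, and tiles sum the reads of their CpGs. Peg3, Mest and Peg10 rest on 2 stacks each.

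Between some stacks of the same window, levels differed by more than counting error in single libraries. The examples from Peg10 and Peg3 were picked after their values were seen, and their intervals make no allowance for that choice. In the Peg10 window, wild-type library 1 read 29.4% on the forward strand (95% Wilson interval 20.3 to 39.9%, median 79 reads) and 57.5% on the reverse strand of adjoining CpGs (42.2 to 70.9%, 42 reads). The same stacks read 47.9% and 53.1% in targeted library 1, and 44.0% and 36.7% in wild-type library 2. In the Peg3 window, targeted library 2 read 52.3% on the forward (44.0 to 59.9%, 148.5 reads) and 28.3% on the reverse strand (21.7 to 35.7%, 155.5 reads), while targeted library 1 read 54.7% and 56.3%. In Peg10 the groups did not overlap on the forward strand and overlapped on the reverse strand, and in Peg3 they overlapped on both. Reads carried no molecular identifiers, so these intervals cover counting error only.

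At the Plagl1 start site, adjoining stacks gave different pictures. The forward stack at 12810619 to 12810666, on the downstream MspI site of the sequence above, read 64.9% and 34.3% in targeted and 34.4%, 32.4% and 30.6% in wild-type cells, at 75 to 150 reads. Targeted library 1 alone stood away there, by its Wilson interval of 54.6 to 73.4%. The reverse stack at 12810570 to 12810619 read 52.2% and 39.7% in targeted and 6.94%, 19.96% and 35.2% in wild-type cells, at 18 to 30.5 reads. Its lowest value, that of wild-type library 1, has an interval of 0.99 to 25.8%. Averaged over the 12 promoter CpGs, Plagl1 read 52.0% and 31.6% in targeted and 28.3%, 31.6% and 34.3% in wild-type cells.

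At the Nnat start site the libraries split in another way. The forward stack from 157385834 on read 50.0% and 26.3% in targeted and 56.4%, 21.4% and 22.2% in wild-type cells, at 15 to 43 reads. Targeted library 1 and wild-type library 1 were high and the other 3 low. The Wilson intervals of the high pair began at 30.1% and 34.2%, and those of the low ones ended at 45.7%, 45.2% and 37.7%, so they overlapped. Its CpG at 157385842, base 279 of the sequence, lies within the GCGGCA match and read 53.3% and 27.6% in targeted and 55.0%, 22.2% and 19.05% in wild-type cells.

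**Figure D3:**
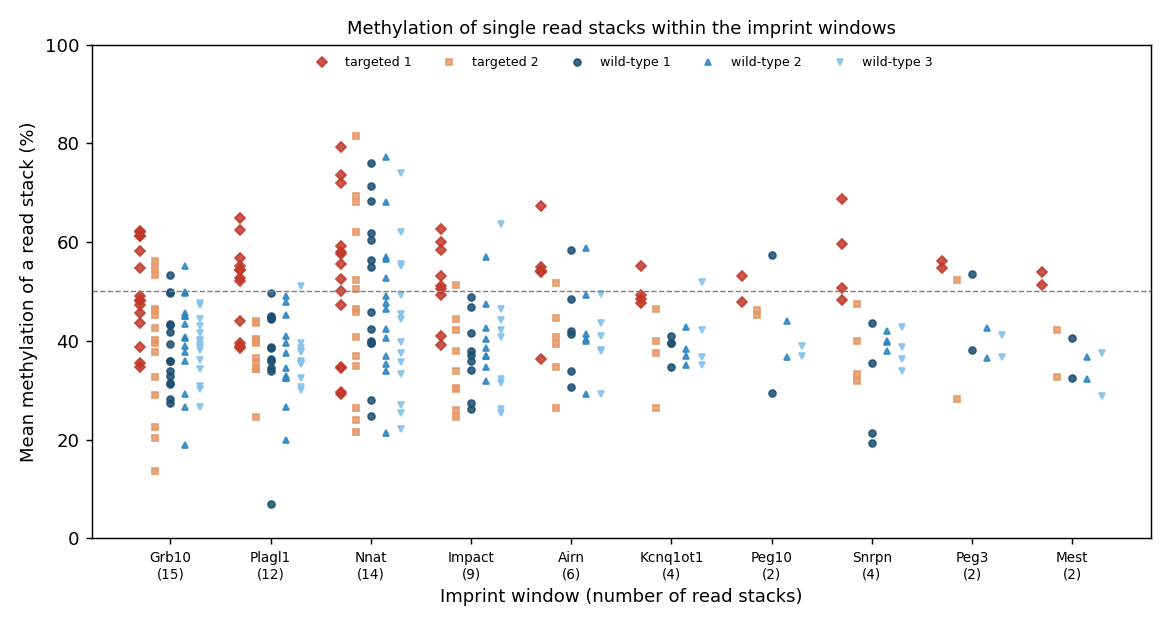
Mean methylation in percent (vertical axis) of each read stack, 1 point per stack and library, for the 10 windows (horizontal axis, with the number of stacks). Stacks of Nnat spread the most, from 21.4% to 81.6%, and the 70 stacks overlap widely between libraries.

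Some positions departed from the level of their window in all 5 libraries alike. They were picked after their values were seen. In the Grb10 window, the CpG at 11925896 read 0%, 0%, 0%, 2.94% and 0% in targeted libraries 1 and 2 and wild-type libraries 1 to 3, on 32, 81, 81, 68 and 29 reads. A count of 0 among 81 reads allows up to 3.70%. The CpG 6 bases before it, at 11925890, read 43.3%, 32.1%, 42.2%, 33.8% and 44.8% in the same order on nearly the same reads. In the opposite direction, the Grb10 CpG at 11926835 read 62.8%, 75.0%, 70.8%, 65.7% and 66.2%, and the CpG 8 bases on, at 11926843, read 55.8%, 50.0%, 53.6%, 49.5% and 42.3%. The Nnat window was higher at both ends than in its middle. Its last CpG, at 157387594, read 73.6%, 69.4%, 76.1%, 77.2% and 74.0% on 91 to 142 reads, and the reverse stack that begins at 157386163 read 29.2%, 21.6%, 24.8%, 35.2% and 27.1%.

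**Figure D4:**
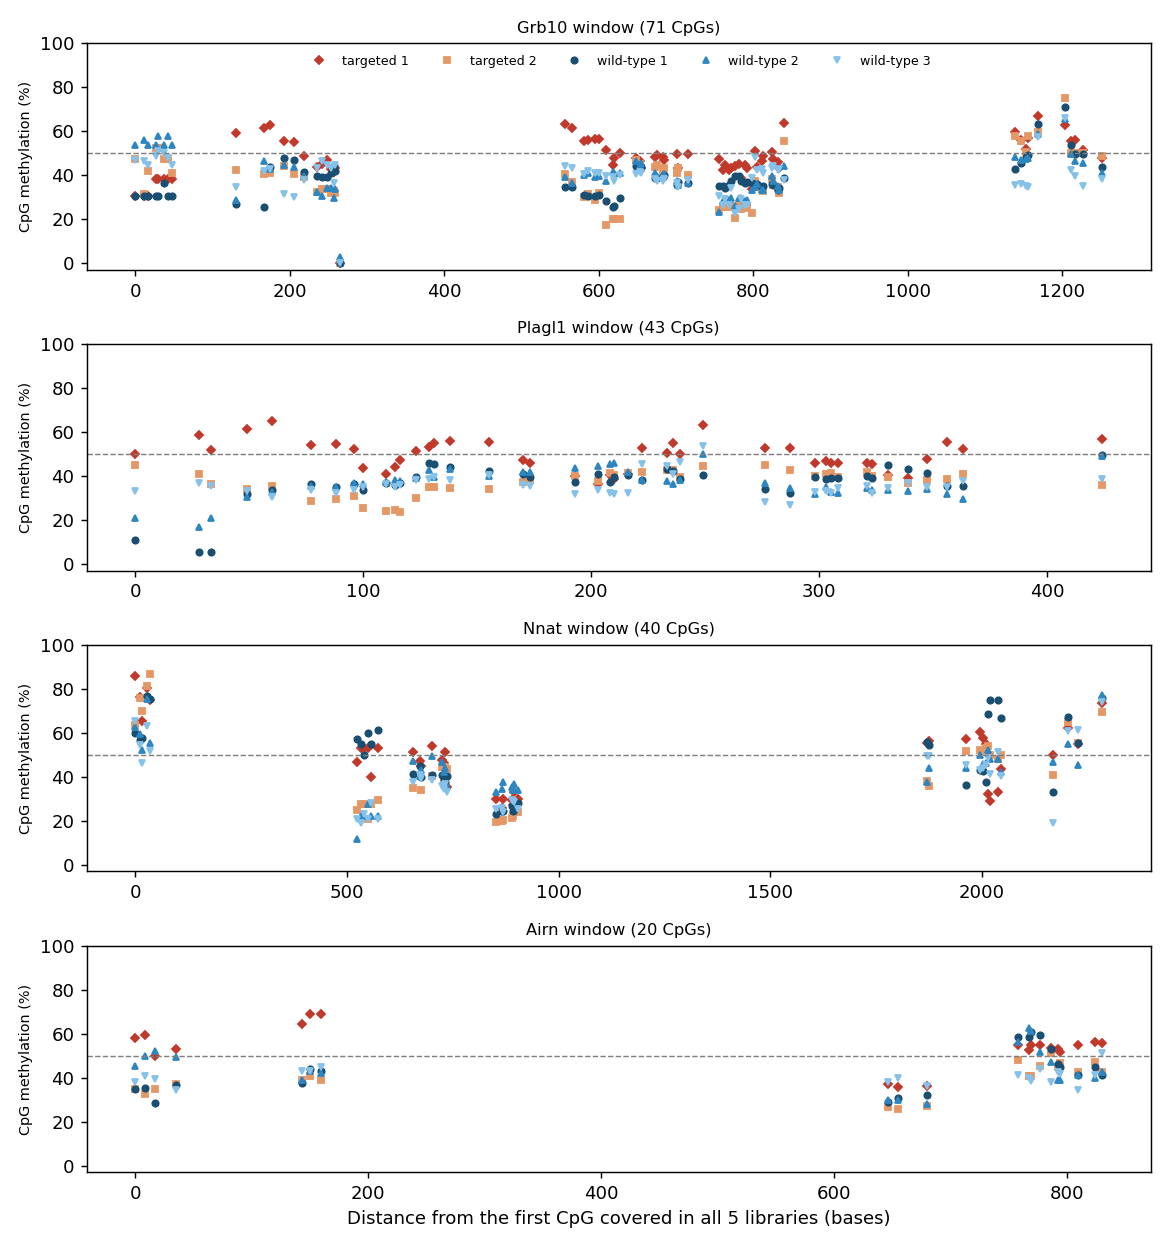
CpG methylation in percent (vertical axis) against the distance in bases from the first CpG of the window (horizontal axis), 1 point per CpG and library, for windows with many CpGs. The Grb10 CpG near 0% and the high ends of the Nnat window are shared by all 5 libraries.

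Few CpGs near the windows were measured. Within 5 kb on each side, 6 of the 20 flanks held CpGs covered in all libraries, 48 in all. Of these, 28 lay to the right of Nnat, from 3431 bases beyond the window on, and averaged 0.18%. In the other 5 flanks, 10 of 20 CpGs had a mean of 20 to 80% and 10 a mean above 80%. The right flank of Snrpn, 72 bases from its window, was near the level of the window, with 46.0% and 44.1% in targeted and 29.4%, 40.1% and 33.2% in wild-type cells on 3 CpGs. The left flank of Mest, 1124 bases away, had 4 of 6 CpGs at 20 to 80% and averaged 78.1%, with 83.0% and 78.2% in targeted and 76.1%, 75.9% and 77.1% in wild-type cells. The left flank of Nnat, 962 bases away, averaged 86.4% on 7 CpGs, with 3 of them at 20 to 80%. Farther out, the right flank of Mest, 2864 bases away, averaged 94.0% and the left flank of Kcnq1ot1, 4274 bases away, 95.4%, on 2 CpGs each.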

How the data were processed

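Genomic DNA of sorted LSK cells was cut with MspI, selected for fragments of 150 to 400 bp, bisulfite-converted and read as single 50 bp reads, per the labels' protocols. The submitters' processing notes name Bismark, with no version, and the build mm9 (NCBIM37). The deposited tables give, per the file headers, a coverage count for each CpG and strand and the percent of it read as C and as T; the lowest deposited count was 10. Total coverage was 122015958 and 151634492 in the targeted and 140469056, 147303723 and 128994674 in the wild-type libraries. Percent times coverage came within 0.01 of a whole read for 99.97% of entries and was rounded to counts. Strands were merged, the top 0.1% of coverage per library was dropped, and autosomal CpGs covered in all 5 libraries were kept.

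Window levels are plain means over CpGs, compared by exact permutation tests. Counts of 1000 bp tiles (at least 3 CpGs) and of CpGs were tested with edgeR 4.0.16 in R 4.3.3. The edgeR fits were quasi-likelihood, with a factor per library and common dispersion, after a check of the code on simulated data. An alternative was limma 3.58.1, and SciPy 1.17.1 was used for the Wilson intervals. Units without methylated or without unmethylated reads were not tested. The windows and lists were chosen with earlier results of these data known. All windows are named, and in each the CpG with the largest difference; other CpGs were picked after their values were seen. Wilson intervals have 95% confidence.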

Additional observations from a re-analysis of the deposited data

How the results depend on the processing

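Of 150 alternative values of the window differences, 144 kept their direction, and 6 reversed, all when targeted library 1 was left out: Peg3 at -1.19 points, Kcnq1ot1 at -4.49, Grb10 at -1.09, Airn at -3.32, Impact at -4.18 and Nnat at -0.498; fewer libraries enter these values by construction. Leaving out each library in turn moved the difference between -1.19 and 14.5 points in Peg3, 1.39 and 21.1 in Snrpn, -4.49 and 10.1 in Kcnq1ot1, 2.97 and 17.999 in Mest, 4.55 and 9.88 in Peg10, -1.09 and 8.84 in Grb10, 0.651 and 13.1 in Plagl1, -3.32 and 11.03 in Airn, -4.18 and 13.0 in Impact, and -0.498 and 6.00 in Nnat. The other settings (a coverage minimum of 20, no upper limit, pooled reads, medians, 1 strand, wider windows, CpGs at 20 to 80%, and a mean over read stacks that was chosen after seeing the data) gave 0.0967 to 13.2 points. Without an upper limit every window kept its main value. Wider windows, the limit of 20 to 80% and the coverage minimum of 20 also left many windows unchanged. Replicate numbers are not said to pair libraries. With them as a block the differences were 0.581 (Nnat) to 12.9 points (Snrpn), the same values as without wild-type library 3. Many of the 150 values thus repeat others, and the 144 are not separate checks. All 22 other fits of tiles or CpGs, limma and the edgeR block among them, called 0 in the windows. Fits without a targeted library rest on 1 library in that group. Depth limits the Snrpn window most, at 14 to 32 reads per CpG.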

Other observations

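Further imprinted windows, placed from general knowledge of mm9, were mostly partly methylated as well. Of 8 more maternally methylated ones, 7 were partly methylated, with 228 CpGs in all, and the window placed for Mcts2 was not, at 92.3% over the 5 libraries. Wild-type means of the 7 ran from 33.8%, at the exon 1A promoter of the signalling gene Gnas, to 48.6%, at Nap1l5. Targeted library 1 was the highest library in 6 of the 7, and was not the highest at Mcts2. It was the highest in 55.7% of autosomal 1000 bp tiles at 20 to 80%, a unit unlike these windows. The distance of targeted library 1 from the wild-type mean ran from -0.352 points (Inpp5f) to 20.95 points (Peg13), with a median of 10.2. The difference of the group means was -2.04 points at Inpp5f and -2.38 at Slc38a4, and was positive in the rest of the 7. The distance of targeted library 2 ran from -10.998 points (Slc38a4) to 2.55 points (Peg13). At Nespas, the noncoding RNA of the Gnas domain, 102 CpGs read 61.4% and 42.8% in targeted and 46.9%, 48.4% and 45.2% in wild-type cells.

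Of 3 windows that gain their methylation in sperm, only that of H19, a noncoding RNA made from the maternal copy, held CpGs covered in all libraries. Its 3 CpGs read 61.4% and 52.7% in targeted and 54.4%, 52.6% and 66.2% in wild-type cells, where wild-type library 3 was the highest.

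Of the 10 CpGs covered in wild-type library 3 alone, the 6 in the Snrpn window read 50.0% to 58.3% on 12 to 13 reads, and the 4 in the Mest window 22.2% on 18 reads.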
